A study of Mus musculus with 15 samples.

Results

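Soybean meal (SBM, *Glycine max*) and yellow mealworm (YMW, *Tenebrio molitor*) were compared in monolayers of mouse duodenal cells, with 3 arrays for each source. They are the arrays whose label names SBM or YMW as the agent, 6 of the 15 arrays of the series. Duodenal organoids of wild type female C57BL/6J mice, 9 weeks old, were dissociated and grown to confluent 2D monolayers in medium with EGF, Noggin, WNT3A and R-Spondin. The undigested protein source was applied to the apical side for 6 h. The labels give the dose as 4% w/v for both sources, while the methods also give a far lower weight per mL, and the pair of values does not match. The labels call the arrays of a group biological replicates 1 to 3, and the paper states that organoids of 3 mice were cultured separately. Each array holds the RNA of 3 pooled wells of a multiwell plate, and no source used here ties an array to 1 mouse. The p-values thus measure the spread between these pools, and whether it lies between mice or is technical cannot be told. The same cells exposed to CAS (casein), SDPP (spray-dried porcine plasma) or DMEM as the medium control (MC) gave 3 arrays each. No MC array entered the difference between SBM and YMW.

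Both sources reach an epithelium in which several known routes set gene expression. The aryl hydrocarbon receptor binds plant flavonoids and indoles, moves to the nucleus and, with Arnt, turns on *Cyp1a1* and *Cyp1b1*, whose enzymes oxidize such ligands in the gut wall. Growth factor, stress and kinase signals turn on immediate early genes within minutes to hours, hypoxia-inducible factors turn on genes of glucose uptake, lipid storage and vessel growth, and YAP turns on *Ccn1*, *Ccn2* and *Ankrd1* when epithelial cells spread or are injured. The SREBP factors and the liver X receptor set the enzymes of cholesterol and fatty acid synthesis.

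*Cyp1a1* was the gene with the largest difference, 4.59-fold higher with SBM than with YMW, and it was followed on the SBM side by *Cyp1b1*, at 2.10-fold. On the YMW side *Depp1* led, at 2.16-fold, ahead of *Adm*, at 1.99-fold, and of *Nr4a1*, *Dusp1*, *Ccn2*, *Egr1*, *Ccn1*, *Ankrd1* and *Hilpda*, at 1.55-fold to 1.71-fold. Most genes differed little. The median size of the difference over 18820 genes was 0.08 on the log2 scale, against a median SE of 0.11, and the 99th percentile was 0.40. The study's threshold asks for a fold change of 1.5 or more and an unadjusted p, here from limma, under 0.05. It was passed by 31 genes or 0.165% of those tested. Of them, 9 were higher with SBM (0.0478%) and 22 were higher with YMW (0.117%). Of the 31, 28 had a mean above background and 28 had no overlap between the SBM and YMW arrays. Among all genes, the 3 SBM arrays lay above the 3 YMW arrays in 3.2% and below them in 7.01%. At an unadjusted p under 0.05 with no threshold on the fold, 339 genes (1.8%) were higher with SBM and 885 (4.7%) with YMW, together 6.5% of genes at a test level of 5%. After Benjamini-Hochberg adjustment over all genes 4 remained below 0.05 (0.0213%), namely *Cyp1a1*, *Depp1*, *Hilpda* and *Efna3*. The split between the directions moved with the scaling: 20 genes were higher with SBM and 8 with YMW when each array was centred on its median, and 12 and 14 after a second quantile normalization, while the median of all genes moved from -0.03 to 0.06 and 0.01.

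**Figure D1:**
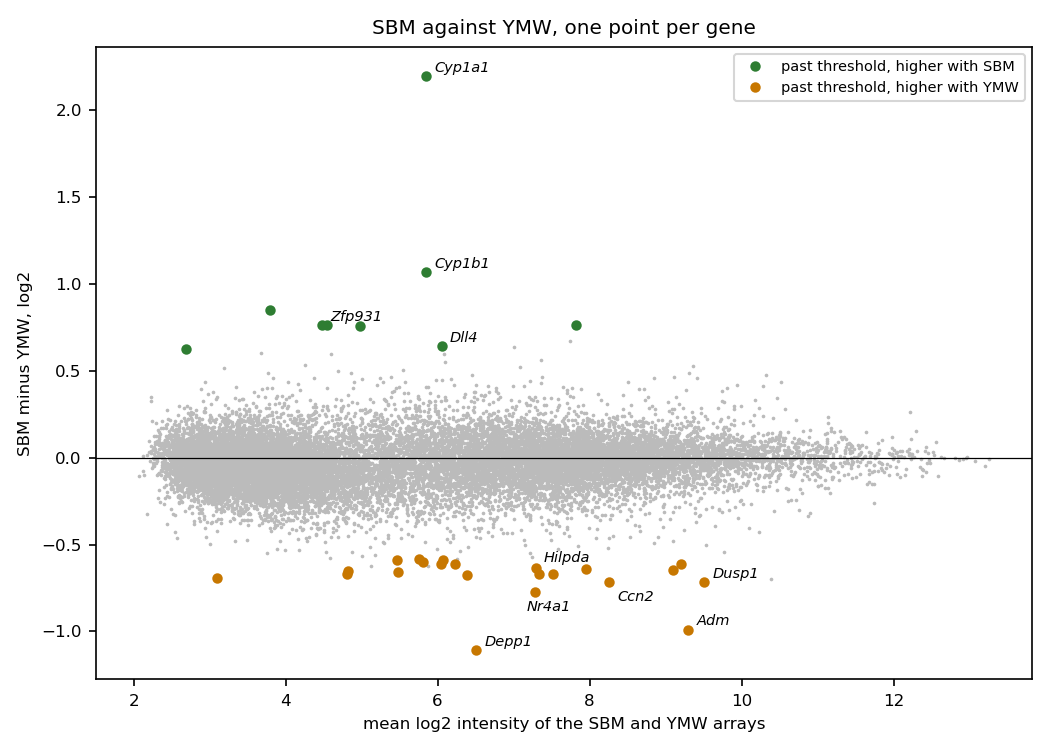
The log2 difference between SBM and YMW (y axis) against the mean log2 intensity of the 6 arrays (x axis), with 1 point per gene. Green and orange points passed the threshold with higher intensity after SBM (9 genes) and YMW (22 genes), and *Cyp1a1*, at 2.20, lies apart from all others.

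In RNA of whole wells, fewer cells of a type and less RNA per cell cannot be told apart. Enterocyte markers varied within both groups: the mean log2 intensity of 26 markers was 7.32, 7.63 and 8.24 in SBM replicates 1, 2 and 3, and 8.32, 7.56 and 7.45 in YMW replicates 1, 2 and 3. The groups overlapped, with SBM replicate 3 and YMW replicate 1 the high arrays. Without both, an alternative chosen after seeing the data, 58 genes passed the threshold, 16 higher with SBM and 42 higher with YMW, among them 25 of the 31. Arrays in the same group had a median SD of 0.11 per gene for both SBM and YMW.

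Promoters are shown for 6 genes past the threshold that had an adjusted p under 0.05 or belonged to the fixed set of named genes. That set was chosen with earlier results of these data known. The receptor and the hypoxia-inducible factors named above bind short cores that can be read in such windows. Each run covers 250 bases before to 50 bases after the RefSeq start on GRCm38.p6, and capitals mark ACGTG or GCGTG on either strand, so CACGT or CACGC where the core lies on the opposite strand.
*Cyp1a1*, chr9:57697363-57697662, plus strand: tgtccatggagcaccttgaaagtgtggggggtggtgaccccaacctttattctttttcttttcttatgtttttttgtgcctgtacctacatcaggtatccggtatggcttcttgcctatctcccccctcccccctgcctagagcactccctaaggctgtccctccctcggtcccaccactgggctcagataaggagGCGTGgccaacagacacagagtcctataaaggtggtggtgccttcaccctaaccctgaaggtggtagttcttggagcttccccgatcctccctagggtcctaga
*Cyp1b1*, chr17:79715012-79715311, minus strand: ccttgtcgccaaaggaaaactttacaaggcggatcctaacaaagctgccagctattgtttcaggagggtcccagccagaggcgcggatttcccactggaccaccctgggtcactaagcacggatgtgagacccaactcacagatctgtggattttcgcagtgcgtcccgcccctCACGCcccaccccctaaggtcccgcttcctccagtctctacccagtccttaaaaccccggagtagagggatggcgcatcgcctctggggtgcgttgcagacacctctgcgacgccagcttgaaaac
*Depp1*, chr6:116650434-116650733, plus strand: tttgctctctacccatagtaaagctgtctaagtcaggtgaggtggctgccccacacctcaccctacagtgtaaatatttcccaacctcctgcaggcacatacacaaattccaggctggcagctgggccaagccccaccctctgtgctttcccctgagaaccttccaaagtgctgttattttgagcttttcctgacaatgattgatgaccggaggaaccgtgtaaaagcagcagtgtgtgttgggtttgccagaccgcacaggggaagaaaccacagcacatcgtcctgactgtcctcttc
*Hilpda*, chr6:29272376-29272675, plus strand: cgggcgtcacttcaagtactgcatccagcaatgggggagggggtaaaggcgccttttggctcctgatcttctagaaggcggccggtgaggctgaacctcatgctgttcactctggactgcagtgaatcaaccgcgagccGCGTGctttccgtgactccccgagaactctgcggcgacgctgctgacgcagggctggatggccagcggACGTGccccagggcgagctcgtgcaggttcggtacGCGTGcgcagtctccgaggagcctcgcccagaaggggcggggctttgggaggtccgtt
*Adm*, chr7:110627407-110627706, plus strand: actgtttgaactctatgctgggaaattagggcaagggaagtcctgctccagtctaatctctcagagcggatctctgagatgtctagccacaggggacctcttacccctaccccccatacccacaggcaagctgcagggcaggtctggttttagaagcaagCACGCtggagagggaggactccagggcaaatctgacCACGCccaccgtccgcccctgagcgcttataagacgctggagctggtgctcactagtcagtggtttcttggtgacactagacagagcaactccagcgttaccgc
*Dusp1*, chr17:26508423-26508722, minus strand: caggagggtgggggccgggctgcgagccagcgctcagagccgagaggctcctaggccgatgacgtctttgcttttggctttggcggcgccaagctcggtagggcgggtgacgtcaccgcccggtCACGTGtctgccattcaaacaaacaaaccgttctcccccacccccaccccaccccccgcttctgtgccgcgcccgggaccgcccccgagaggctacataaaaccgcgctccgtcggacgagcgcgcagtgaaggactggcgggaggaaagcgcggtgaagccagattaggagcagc

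The window of *Cyp1a1* holds 1 GCGTG, whose first base lies 54 bases before the start, and that of *Cyp1b1* holds 1 on the opposite strand. GCGTG, the core that the aryl hydrocarbon receptor binds with Arnt, was present on either strand in 32.4% of all 32851 promoter windows, so 1 match is common. *Hilpda* has 3 matches to ACGTG or GCGTG in the window shown. The window of an alternative start (chr6:29272238-29272537) overlaps it, and its 1 match is the first of these 3. *Adm* has 2, *Dusp1* has 2 that overlap in 1 CACGTG, and *Depp1* has none, where 43.8% of all windows hold at least 1. GCGTG made up 2 of the 3 matches in the *Hilpda* window shown and the 2 in *Adm*. The core named for the aryl hydrocarbon receptor thus occurred in genes higher with SBM and in genes higher with YMW. GTAAACA, the element bound by FOXO factors, was absent from the window of *Depp1* and present in 3.65% of all windows. Of the 31 genes past the threshold, 21 had a window in the RefSeq table. A match is a description of the letters and no match says only that they are not in these bases.

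The comparison of the genes of xenobiotic sensing asks whether the plant and the insect source were met by the same enzymes. *Cyp1a1*, the hydroxylase of polycyclic and plant aromatic compounds, had a log2 intensity of 7.02, 6.60 and 7.21 in the SBM arrays and of 4.73, 4.95 and 4.57 in the YMW arrays. All SBM arrays lay above all YMW arrays, and above every CAS and SDPP array, which ran from 3.69 to 5.74. The difference was 2.20 ± 0.22 (SE; 95% interval 1.72 to 2.68; limma, adjusted p = 0.0030). Over 23 alternatives it stayed between 2.05 and 2.37, with an adjusted p of 0.000136 to 0.0424. Against the mean of CAS and SDPP, which both contrasts share, the value was 2.35 ± 0.19 for SBM (adjusted p = 0.000229) and 0.15 ± 0.19 for YMW (adjusted p = 0.922). The mean of the MC arrays was 4.40, close to that of YMW.

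*Cyp1b1*, the related enzyme that hydroxylates oestradiol and aromatic compounds, had a log2 intensity of 6.98, 6.36 and 5.82 in the SBM arrays and of 4.42, 5.81 and 5.72 in the YMW arrays. The lowest SBM array and the highest YMW array nearly touched. The difference of 1.07 ± 0.35 passed the study's threshold but not the adjustment (adjusted p = 0.627), and it lost the threshold without SBM replicate 1 (0.77) or without YMW replicate 1 (0.62), where the unadjusted p rose above 0.05. A second probe set of *Cyp1b1*, with a mean log2 intensity of 3.52, below the background of 3.91, differed by 0.16 ± 0.15. Against the mean of CAS and SDPP, *Cyp1b1* was at 1.36 ± 0.31 with SBM and 0.29 ± 0.31 with YMW. CAS and SDPP themselves differed, with means of 4.57 and 5.48, and SDPP replicate 3, at 5.97, lay above the lowest SBM array. From the MC mean of 3.81, *Cyp1b1* was at 2.58 ± 0.45 with SBM (limma, adjusted p = 0.0823) and 1.51 ± 0.45 with YMW (adjusted p = 0.124). The MC arrays ran from 3.04 to 4.85, and YMW replicate 1, at 4.42, lay within that range.

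Of 9 measured targets of the aryl hydrocarbon receptor, *Cyp1a1* and *Cyp1b1* passed the threshold and none passed it with higher values after YMW (0.0478% and 0.117% of all genes passed on the 2 sides), with a list median of 0.17 against -0.03 over all genes. *Ahrr*, the repressor that the receptor induces, differed by 0.31 ± 0.16 (adjusted p = 0.769) at a mean near background. *Nqo1*, a quinone reductase, differed by 0.24 (adjusted p = 0.763), and *Cyp1a2* was below background in both groups. The receptor *Ahr* itself (0.05 ± 0.09, adjusted p = 0.965) and its partner *Arnt* (-0.06 ± 0.08, adjusted p = 0.926) had no difference beyond the spread between arrays. *Tiparp*, another target, is not analysed here. Of 26 NRF2 targets, the genes of oxidant and electrophile defence, none passed the threshold, and *Abcc1* (-0.27), *Blvrb* (-0.26) and *Hmox1* (-0.25) had an unadjusted p under 0.05 with higher values after YMW, and *Pgd* (0.17) after SBM, so 3 and 1 of 26 against 4.7% and 1.8% of all genes. The direction turned with the scaling: 5 were higher with SBM and 0 with YMW when arrays were centred on their median. No member of 23 conjugation enzymes and glutathione transferases or of 18 cytochrome P450 genes of families 2, 3 and 4 had an unadjusted p under 0.05.

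**Figure D2:**
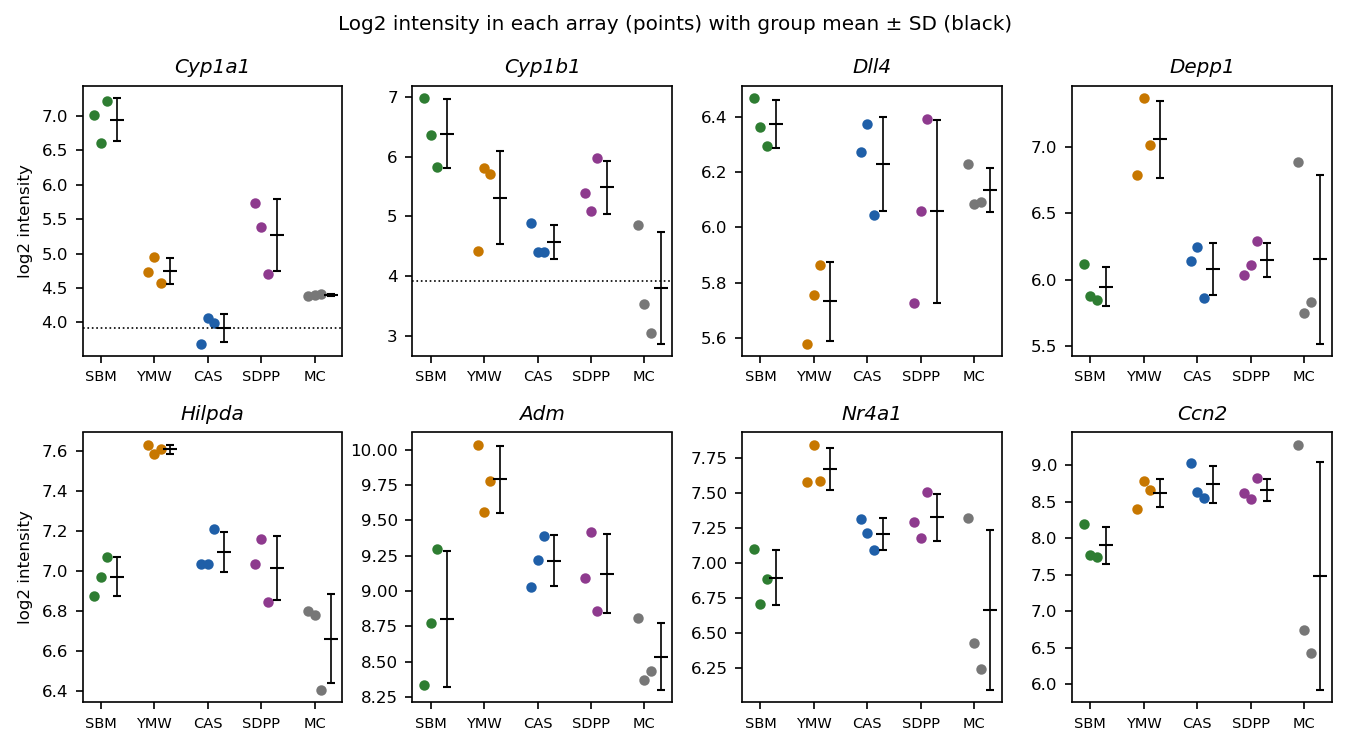
Log2 intensity (y axis) of 8 genes in each array of SBM, YMW, CAS, SDPP and MC, with the group mean ± SD (n = 3) in black and the background of 3.91 as a dotted line where it falls within the panel, and with a scale of its own for each gene. SBM stands above all other groups for *Cyp1a1*, YMW above the other protein sources for *Depp1* and *Hilpda*, and SBM below the other protein sources for *Ccn2*.

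On the YMW side, *Depp1*, a gene driven by FOXO factors and by progesterone and tied to autophagy, had a log2 intensity of 6.79, 7.37 and 7.02 with YMW and of 6.12, 5.88 and 5.85 with SBM. The groups did not overlap, and the 6 CAS and SDPP arrays, from 5.87 to 6.29, lay with SBM. Of the MC arrays, replicate 1, at 6.89, lay within the range of the YMW arrays. The difference was -1.11 ± 0.14 (adjusted p = 0.0258), and it passed the threshold in all 23 alternatives, with an adjusted p of 0.00731 to 0.558 over them. Against the mean of CAS and SDPP, *Depp1* was at 0.94 ± 0.13 with YMW (adjusted p = 0.0316) and at -0.17 ± 0.13 with SBM (adjusted p = 0.909). Of 24 measured genes that respond to glucocorticoids or FOXO factors, it was the only one past the threshold, which 0.117% of all genes passed on the YMW side. *Sesn3*, a FOXO target that restrains mTORC1, differed the other way, by 0.40 ± 0.15 (adjusted p = 0.695).

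*Hilpda*, the lipid droplet protein that inhibits the main triglyceride lipase, had a log2 intensity of 7.63, 7.59 and 7.61 with YMW and of 6.87, 6.97 and 7.07 with SBM. Its difference was -0.64 ± 0.09 (adjusted p = 0.0499, from 0.0254 to 0.267 over the alternatives), and it fell short of the fold threshold when arrays were centred on their median (-0.55). YMW was the group apart, at 0.55 ± 0.08 from the mean of CAS and SDPP (adjusted p = 0.0454), with SBM at -0.08 ± 0.08. *Adm*, which encodes the vasodilator peptide adrenomedullin, had a log2 intensity of 10.03, 9.56 and 9.78 with YMW and of 8.33, 8.78 and 9.29 with SBM. The SBM arrays spread over almost 1 log2 unit and still lay below every YMW array. The difference was -0.99 ± 0.20 (adjusted p = 0.221), with a range of -1.24 to -0.76 over the alternatives.

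Of 32 hypoxia-inducible factor targets, *Adm* and *Hilpda* passed the threshold, and 6 had an unadjusted p under 0.05, all higher with YMW, where 4.7% of all genes were. The other 4 were *Slc2a1*, the glucose transporter GLUT1 (-0.26 ± 0.06), *Ddit4*, an inhibitor of mTORC1 (-0.34 ± 0.10), *Slc16a3*, a lactate exporter (-0.37 ± 0.13) and *Bhlhe40*, a transcriptional repressor (-0.25 ± 0.10). The median of the list was -0.13, and it kept its sign in every alternative, from -0.21 to -0.04. The mean of the 32 genes was 9.24, 9.40 and 9.58 with SBM and 9.69, 9.48 and 9.56 with YMW, so the groups overlapped, and the highest array of each group was the one with the highest enterocyte markers. The glycolytic enzymes *Ldha* (0.00), *Pgk1* (-0.06), *Aldoa* (-0.08) and *Tpi1* (0.06) had small differences that did not reach an unadjusted p under 0.05. The count of 6 became 13 without SBM replicate 3, and 10 without it and YMW replicate 1. Of 8 hypoxia-inducible factors and their regulators, *Hif3a* alone had an unadjusted p under 0.05 (-0.30, adjusted p = 0.708). It was higher with YMW, where 4.7% of all genes were.

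*Efna3*, which encodes the membrane ligand ephrin-A3, had a log2 intensity of 8.53, 8.46 and 8.52 with YMW and of 7.88, 7.99 and 8.08 with SBM. Its difference of -0.52 ± 0.08 (adjusted p = 0.0499, from 0.0349 to 0.757 over the alternatives) lay below the fold threshold. A second probe set of this gene was dimmer, at a mean of 4.54, and differed by -0.20 ± 0.15.

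Of 31 immediate early genes, 11 were higher with YMW and 1 with SBM at an unadjusted p under 0.05, against 4.7% and 1.8% of all genes, and 3 of the 11, *Nr4a1*, *Dusp1* and *Egr1*, passed the threshold. *Nr4a1*, an orphan nuclear receptor, had a log2 intensity of 7.58, 7.84 and 7.59 with YMW and of 7.10, 6.71 and 6.88 with SBM. It lay to both sides of the other sources: at 0.40 ± 0.10 with YMW and at -0.37 ± 0.10 with SBM from the mean of CAS and SDPP. The difference of -0.77 ± 0.12 (adjusted p = 0.0613) passed the threshold in all 23 alternatives.

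*Dusp1*, the phosphatase that switches off the MAP kinases p38, JNK and ERK, was nearly equal in the YMW arrays, at 9.87, 9.88 and 9.84, and ran from 8.83 over 9.09 to 9.53 in the SBM arrays. The difference was -0.72 ± 0.13 (adjusted p = 0.142), and without SBM replicate 1 it was -0.56, just under the fold threshold. *Egr1*, a zinc finger transcription factor of the growth factor response, had a log2 intensity of 7.68, 7.85 and 7.47 with YMW and of 6.87, 6.93 and 7.19 with SBM, a difference of -0.67 ± 0.13 (adjusted p = 0.142). It too fell just short of the fold threshold without YMW replicate 2 (-0.57) and with arrays centred on their median (-0.58).

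The remaining 8 early genes with higher values after YMW at an unadjusted p under 0.05 did not reach the fold threshold. They were *Ier3* (-0.54 ± 0.10), *Fos* (-0.46 ± 0.17), *Klf10* (-0.45 ± 0.13), *Btg2* (-0.33 ± 0.07), *Dusp5* (-0.32 ± 0.09), *Gadd45b* (-0.31 ± 0.07), *Dusp4* (-0.28 ± 0.09) and *Maff* (-0.22 ± 0.09). *Jund* differed the other way, by 0.19 ± 0.08. The median of the list was -0.24 against -0.03 over all genes, and it ran from -0.30 to -0.15 over the alternatives. By array, the mean of the 31 genes was 7.49, 7.53 and 7.76 with SBM and 7.82, 7.82 and 7.81 with YMW. SBM replicate 3, one of the arrays with high enterocyte markers, was the SBM array nearest to YMW. The count of 11 became 17 without SBM replicate 3, and 14 without it and YMW replicate 1.

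**Figure D3:**
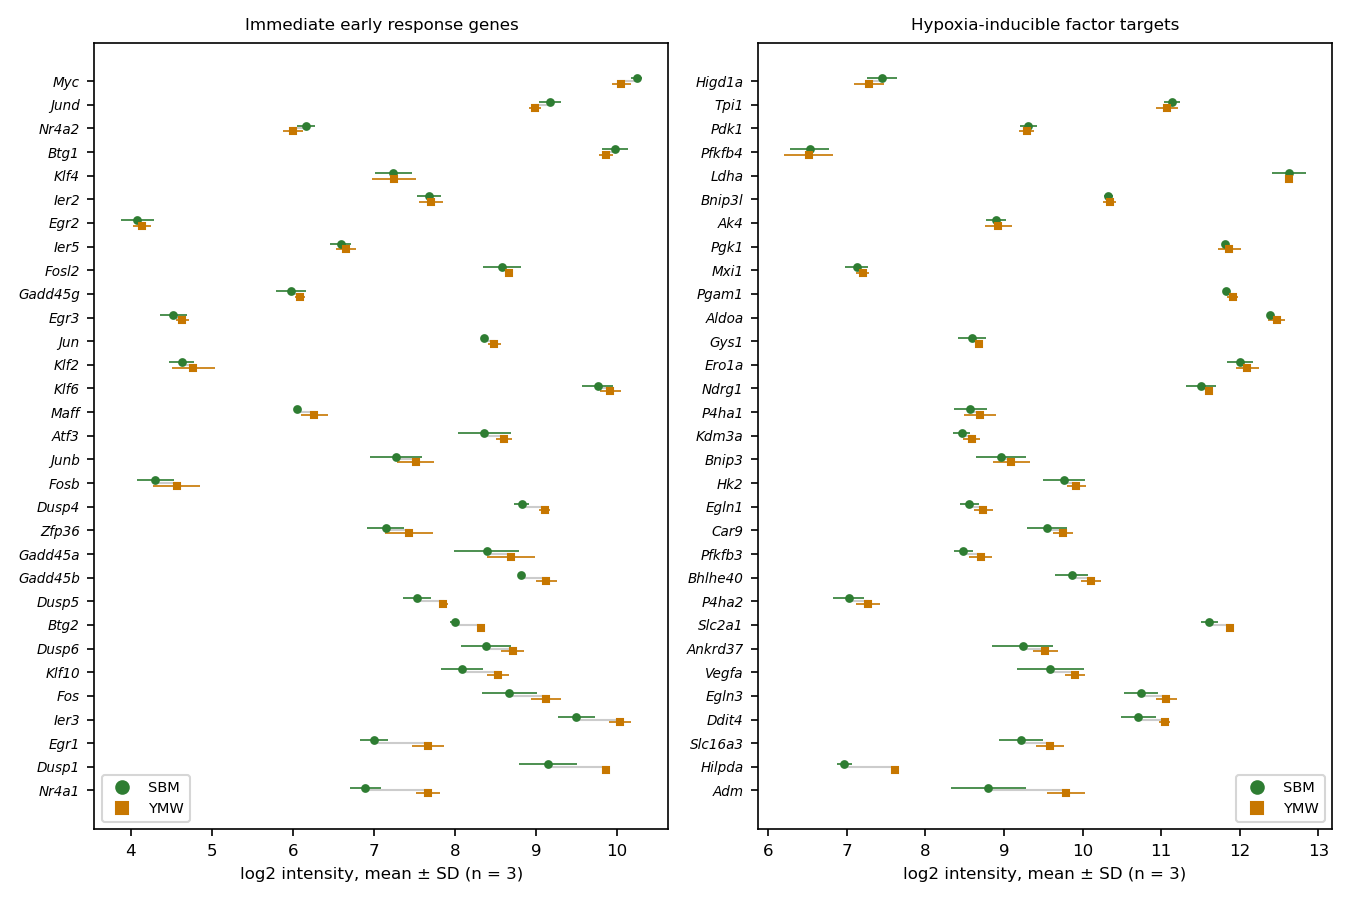
Mean log2 intensity ± SD (n = 3; x axis) with SBM (green circles) and YMW (orange squares) for the immediate early genes (left) and hypoxia-inducible factor targets (right) above background, ordered by their difference. The pairs separate at the lower end, where *Nr4a1*, *Dusp1* and *Egr1* and, on the right, *Adm* and *Hilpda* stand, and nearly coincide for *Klf4* and *Ldha*.

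YAP targets and genes of injured epithelium had 16 measured members, of which all had a negative difference, as did 11129 of all 18820 genes. Of the 16, 7 had an unadjusted p under 0.05 and 3 passed the threshold, all higher with YMW, where 4.7% and 0.117% of all genes were. *Ccn2*, a matrix-associated growth regulator, had a log2 intensity of 8.19, 7.76 and 7.74 with SBM and of 8.40, 8.79 and 8.65 with YMW, a difference of -0.72 ± 0.15 (adjusted p = 0.221). *Ccn1*, its paralogue, had 8.86, 8.72 and 8.73 with SBM and 9.50, 9.45 and 9.30 with YMW, a difference of -0.65 ± 0.12 (adjusted p = 0.142). For this pair SBM was the group apart among the protein sources. The SBM arrays lay within the range of the MC arrays, at 9.28, 6.74 and 6.42 for *Ccn2* and 9.66, 7.38 and 7.32 for *Ccn1*. *Ccn2* was at -0.80 ± 0.13 from the mean of CAS and SDPP with SBM (adjusted p = 0.0627) and at -0.08 ± 0.13 with YMW, and *Ccn1* at -0.56 ± 0.10 and 0.09 ± 0.10.

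*Ankrd1*, a nuclear and sarcomeric ankyrin protein, had a log2 intensity of 7.73, 7.65 and 7.51 with SBM and of 8.52, 8.40 and 7.90 with YMW, a difference of -0.64 ± 0.13 (adjusted p = 0.198). *Ptgs2*, the inducible cyclooxygenase, differed by -0.40 ± 0.14, *Amotl2* by -0.26 ± 0.10, *Tnfrsf12a* by -0.21 ± 0.09 and *Anxa3* by -0.18 ± 0.06. The mean of the list ran from 8.31 to 9.25 among the MC arrays, against 8.75 to 8.90 with SBM and 9.01 to 9.10 with YMW. With all 15 arrays in 1 fit 1 member of the list had an unadjusted p under 0.05 and *Ccn1*, *Ccn2* and *Ankrd1* lost the threshold at the same differences, with an unadjusted p above 0.05. With arrays centred on their median the count was 3, and *Ccn1* and *Ankrd1*, both at -0.56, fell short of the fold threshold. *Ankrd1* did so too without SBM replicate 3 (-0.58), YMW replicate 1 (-0.52) or YMW replicate 2 (-0.58).

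Of 27 NF-kB targets and chemokines, none passed the threshold and 5 had an unadjusted p under 0.05, all higher with YMW, where 4.7% of all genes were. *Nfkbia*, the inhibitor that NF-kB itself induces, had a log2 intensity of 9.11, 9.27 and 9.45 with SBM and of 9.86, 9.75 and 9.74 with YMW, with no overlap and a difference of -0.50 ± 0.09 (adjusted p = 0.142). *Tnfaip2* differed by -0.51 ± 0.12, *Nos2*, the inducible nitric oxide synthase, by -0.35 ± 0.13, *Nfkbiz* by -0.28 ± 0.13 and *Tnfaip3*, which encodes the deubiquitinase A20, by -0.25 ± 0.08. *Tnfaip2* was the member farthest from CAS and SDPP, at 0.77 ± 0.11 with YMW (adjusted p = 0.0356) and 0.26 ± 0.11 with SBM. The list's median was -0.11, and 3 members were higher with YMW with all 15 arrays in the fit. With arrays centred on their median, 2 were higher with YMW and 3 with SBM. Among 16 EGF receptor ligands and feedback genes, *Hbegf*, a ligand of that receptor, differed by -0.46 ± 0.11 and *Phlda1* by -0.18 ± 0.07, both below the fold threshold.

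Members of the fatty acid and cholesterol synthesis lists that had an unadjusted p under 0.05 were higher with SBM than with YMW. Of 20 genes of fatty acid synthesis and liver X receptor targets, 8 had an unadjusted p under 0.05, all higher with SBM, where 1.8% of all genes were, and none reached the fold threshold. *Fasn*, the fatty acid synthase, had a log2 intensity of 9.53, 9.51 and 9.61 with SBM and of 9.16, 9.14 and 8.88 with YMW, a difference of 0.49 ± 0.09 (adjusted p = 0.142). *Scd1*, the stearoyl-CoA desaturase, had 10.35, 10.48 and 10.85 with SBM and 10.13, 9.95 and 10.18 with YMW, a difference of 0.47 ± 0.12. In neither gene did the groups overlap. *Acaca* (0.31 ± 0.10) and *Acly* (0.30 ± 0.08), which make malonyl-CoA and acetyl-CoA, *Scd2* (0.26 ± 0.07), the desaturases *Fads2* (0.24 ± 0.06) and *Fads1* (0.20 ± 0.08), and the regulator *Srebf1* (0.21 ± 0.09) completed the 8. The list's median was 0.18, from 0.13 to 0.26 over the alternatives. The count higher with SBM ran from 7 to 11, and that higher with YMW from 0 to 2.

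Of 22 genes of cholesterol synthesis and uptake, 7 had an unadjusted p under 0.05, all higher with SBM, where 1.8% of all genes were, none past the fold threshold, and the median was 0.22. *Fdft1*, the squalene synthase, had a log2 intensity of 10.56, 10.64 and 10.72 with SBM and of 10.41, 10.25 and 10.24 with YMW, a difference of 0.34 ± 0.09. *Idi1*, the isomerase of isopentenyl diphosphate, differed by 0.39 ± 0.11, *Cyp51*, the lanosterol demethylase, by 0.42 ± 0.12, *Mvk*, the mevalonate kinase, by 0.41 ± 0.12, *Nsdhl* by 0.32 ± 0.09, *Dhcr7* by 0.25 ± 0.11 and *Fdps* by 0.24 ± 0.11. Both *Fasn* (SBM 0.19 ± 0.08, YMW -0.30 ± 0.08) and *Fdft1* (SBM 0.15 ± 0.07, YMW -0.19 ± 0.07) lay to both sides of the mean of CAS and SDPP.

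The cholesterol values moved with enterocyte markers among the arrays. The mean of the 22 genes was 9.24, 9.31 and 9.60 with SBM and 9.32, 9.08 and 9.14 with YMW, so the groups overlapped, and the highest array of each group was the one with the highest enterocyte markers. In the MC arrays that mean was 9.26, 10.09 and 10.13. The part of those cells in the result was not tested beyond leaving out SBM replicate 3 and YMW replicate 1. Without them, 5 of the 22 cholesterol genes were higher with SBM at an unadjusted p under 0.05 and 0 with YMW, at a median of 0.14. Of the 20 fatty acid genes, 7 were higher with SBM and 2 with YMW at that p, at a median of 0.20. The cholesterol count fell to 1 with all 15 arrays in the fit, and rose to 14 with arrays centred on their median. Of 24 genes of triglyceride synthesis and chylomicron assembly, *Gpam* (0.40 ± 0.11), the first acyltransferase of the pathway, and the phosphatase *Lpin1* (0.35 ± 0.12) had an unadjusted p under 0.05. Both were higher with SBM, where 1.8% of all genes were, while the median of the list was -0.04, with 7 positive and 17 negative differences. Of 17 genes of phosphatidylcholine synthesis and choline uptake, *Lpcat4*, a lysophospholipid acyltransferase, alone had an unadjusted p under 0.05. It was higher with YMW (-0.35 ± 0.09), where 4.7% of all genes were. Of 17 lipid droplet proteins and lipases, *Hilpda* passed the threshold, as 0.117% of all genes did on the YMW side. *Plin2*, a coat protein of lipid droplets, differed by -0.30 ± 0.10.

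**Figure D4:**
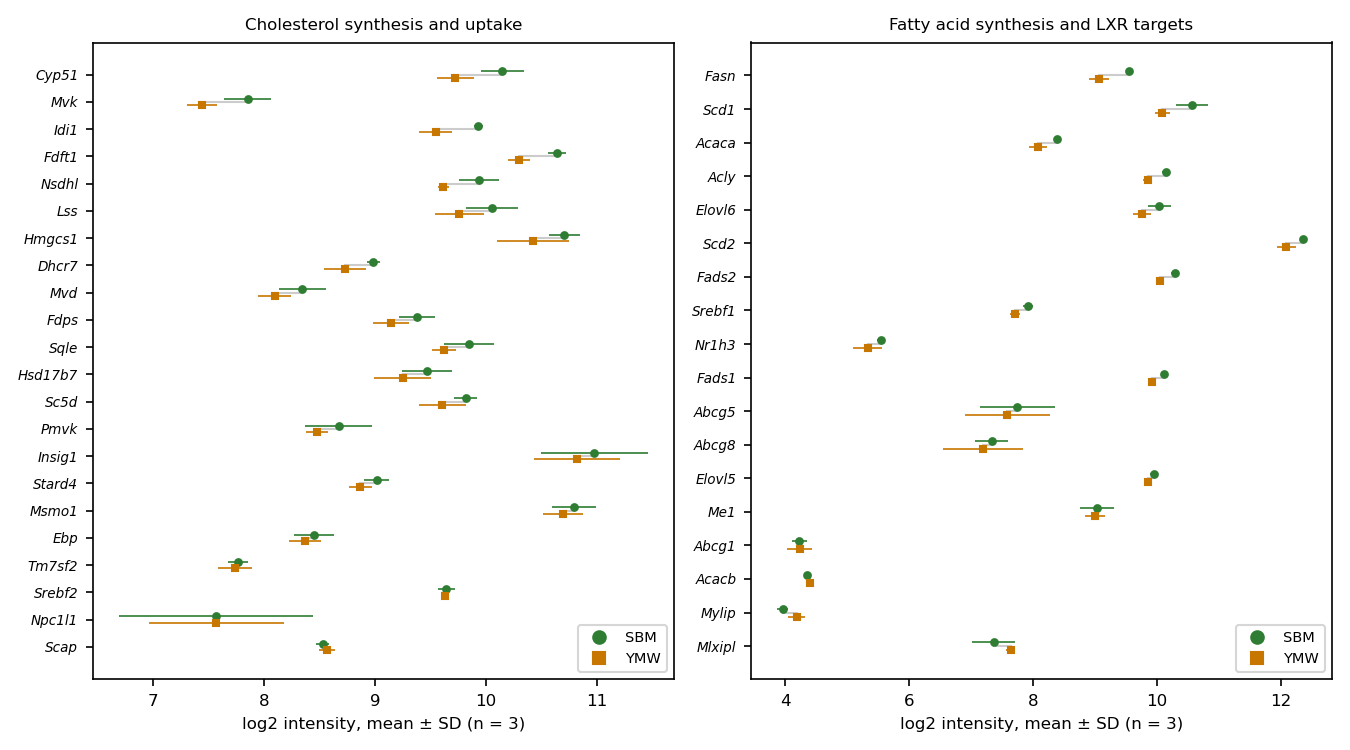
Mean log2 intensity ± SD (n = 3; x axis) with SBM (green circles) and YMW (orange squares) for genes above background of cholesterol synthesis and uptake (left) and of fatty acid synthesis and liver X receptor targets (right), ordered by their difference. SBM lies to the right of YMW for most genes, with the largest gaps at *Cyp51*, *Mvk*, *Fasn* and *Scd1*, and wide SDs for *Npc1l1* and *Insig1*.

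Among regulators of Notch and the secretory lineage, which decide between absorptive and secretory fate in the crypt, *Dll4* passed the threshold. This Notch ligand had a log2 intensity of 6.47, 6.36 and 6.29 with SBM and of 5.58, 5.75 and 5.86 with YMW, a difference of 0.64 ± 0.15 (adjusted p = 0.311) that was 0.57, just under the fold threshold, without YMW replicate 1. YMW was farther from the mean of CAS and SDPP (-0.41 ± 0.13) than SBM (0.23 ± 0.13). The ligand *Dll1* (0.38 ± 0.10), the secretory factor *Atoh1* (0.31 ± 0.12) and the endocrine factor *Neurog3* (0.42 ± 0.17) had an unadjusted p under 0.05 in the same direction, 4 of 17 in all, where 1.8% of all genes were higher with SBM, and 2 of 17 without YMW replicate 1. The median of the list was -0.05, so most other members did not follow. Markers of the cells that arise from this choice had no member past the threshold, with medians of -0.03 over 13 goblet genes, -0.07 over 22 enteroendocrine genes and -0.02 over 16 tuft genes.

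The other genes past the threshold were of mixed or little known function. With SBM, *Zfp931*, a zinc finger gene, had a log2 intensity of 5.07, 4.67 and 4.85 against 3.94, 4.27 and 4.09 with YMW, a difference of 0.76 ± 0.13 (adjusted p = 0.135). *Zbed5*, also of zinc finger type, had 4.95, 5.02 and 4.81 against 3.84, 4.22 and 4.44, a difference of 0.76 ± 0.16. Both passed the threshold in all 23 alternatives, at low intensities. Below the fold threshold followed *Akr1c19*, an aldo-keto reductase (0.57 ± 0.13), *H1f1*, a linker histone (0.53 ± 0.14), and *Pik3r3*, a regulatory subunit of phosphoinositide 3-kinase (0.52 ± 0.18). The other 4 genes past the threshold on the SBM side, named after their values were seen, were the predicted genes *Gm6020* (0.85) and *Gm5662* (0.62), both below background, and the small nucleolar RNAs *Snord118* and *Snord58b* (both 0.76), whose groups overlapped. *Snord118* passed the threshold in 18 of 23 alternatives, with a range of 0.43 to 1.19, and fell short without replicate 1 or 2 of either group and without SBM replicate 3 and YMW replicate 1. *Snord58b* ranged from 0.40 to 1.17 and fell short without YMW replicate 2. *Gm6020* fell short without SBM replicate 1 and without SBM replicate 3 and YMW replicate 1, and *Gm5662* without SBM replicate 2 or YMW replicate 1.

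With YMW, *Tmem71* (-0.67 ± 0.13), *Prnd* (-0.67 ± 0.23), *Cnfn* (-0.67 ± 0.17) and *Edn2* (-0.65 ± 0.17) passed the threshold. Their groups did not overlap, which the rule for naming them required. *Edn2* encodes the peptide endothelin 2, *Prnd* a relative of the prion protein and *Cnfn* cornifelin of the cornified envelope. *Prnd* lost the threshold without SBM replicate 3 (-0.49) and with all 15 arrays in the fit, with an unadjusted p above 0.05 in both, and the fold threshold without YMW replicate 2 (-0.57). *Tmem71* fell just below the fold threshold after a second quantile normalization (-0.58) and without SBM replicate 3 and YMW replicate 1 (-0.56). *Cnfn* and *Edn2* were below the fold threshold with arrays centred on their median (-0.58 and -0.57), without SBM replicate 2 (-0.50 and -0.55), and, for *Cnfn* without YMW replicate 2 (-0.51) or for *Edn2* without YMW replicate 1 (-0.53). *Plat*, the tissue plasminogen activator, which was chosen after its values were seen, had a log2 intensity of 9.50, 9.47 and 9.55 with YMW and of 8.77, 8.88 and 9.02 with SBM, a difference of -0.61 ± 0.16. *Pgf*, placental growth factor, likewise chosen afterwards, differed by -0.59 ± 0.19. *Plat* was short of the fold threshold without SBM replicate 1 and with arrays centred on their median, and *Pgf* in 7 of the 23 alternatives. The last 7 genes higher with YMW, also listed after their values were seen, were *Lce3b* (below background), *Gprc5b* (groups overlapping), *4632427E13Rik*, *Zc3h6*, *Rgs11*, *Mir296* and *Krtap5-3*, with differences from -0.69 to -0.59.

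*Cd68*, a lysosomal glycoprotein abundant in macrophages, had a log2 intensity of 6.63, 6.58 and 6.42 with YMW and of 5.95, 5.79 and 6.14 with SBM, a difference of -0.58 ± 0.13 that missed the fold threshold. It was the only one of 16 immune cell markers with an unadjusted p under 0.05, where 4.7% of all genes were higher with YMW. *Ptprc*, *Itgam*, *Itgax* and *Adgre1*, which define leukocytes and macrophages, were below background in these monolayers, while 7 of the 16 markers had a mean above it. The mean of the list was 4.25 to 4.34 with SBM and 4.30 to 4.38 with YMW. No member of 12 fibroblast and muscle genes or 6 endothelial genes had an unadjusted p under 0.05.

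Gene groups tied to the nature of the sources were compared next. Of 16 genes of chitin enzymes and type 2 immunity, the genes that respond to insect and fungal chitin, none passed the threshold and 3 had an unadjusted p under 0.05, all higher with YMW, where 4.7% of all genes were. *Il4ra*, a subunit of the receptors for IL-4 and IL-13, differed by -0.23 ± 0.07, and *Chil1* (-0.27) and *Chil4* (-0.23) were below background in both groups. Of 9 oestrogen receptors and targets, which soy isoflavones can bind or alter, *Nrip1* alone had an unadjusted p under 0.05 (0.22 ± 0.08). It was higher with SBM, where 1.8% of all genes were. Of 24 genes of retinoid handling, *Rdh11* (0.36 ± 0.11), *Isx* (0.36 ± 0.16) and *Bco2* (0.27 ± 0.12) had an unadjusted p under 0.05, all higher with SBM, where 1.8% of all genes were. The list's median was 0.001, with 12 positive and 12 negative differences, and the count fell to 1 with all 15 arrays in the fit. Of 6 retinoic acid and retinoid X receptors none had an unadjusted p under 0.05. Of 26 peroxisome proliferator-activated receptors and targets, none passed the threshold and 2 had an unadjusted p under 0.05. Both, *Acaa1b*, a peroxisomal thiolase (-0.49 ± 0.16), and *Plin2*, were higher with YMW, where 4.7% of all genes were. The targets *Cpt1a* (-0.12 ± 0.09), *Angptl4* (-0.34 ± 0.17) and *Pdk4* (-0.02 ± 0.07) did not reach an unadjusted p under 0.05.

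Interferon-stimulated genes had a median of 0.18 over 30 members, yet 3 had an unadjusted p under 0.05, *Cmpk2* (0.55 ± 0.24), *Ifit2* (0.44 ± 0.19) and *Irf1* (0.19 ± 0.09). The mean of the list ran from 6.00 to 6.93 among the SBM arrays and from 6.06 to 6.75 among the YMW arrays, so the arrays of each group differed more than the groups did. The 3 were all higher with SBM, and their count was 16 without SBM replicate 1, 9 without YMW replicate 1, and 0 without SBM replicate 2, without YMW replicate 2 or with all 15 arrays in the fit. Without SBM replicate 3 it was 1, with 2 higher with YMW, and without YMW replicate 3 it was 1, with 0 higher with YMW. Crypt base stem cell genes (median 0.01 over 19), mitotic genes (0.06 over 21), S phase genes (0.02 over 24) and enterocyte genes (-0.03 over 26) had no member past the threshold. The same held for 21 amino acid and peptide transporters, 15 brush border peptidases, 14 genes of sugar digestion and transport, 18 tight junction genes and 17 aminoacyl-tRNA synthetases, with medians between -0.05 and 0.00.

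**Figure D5:**
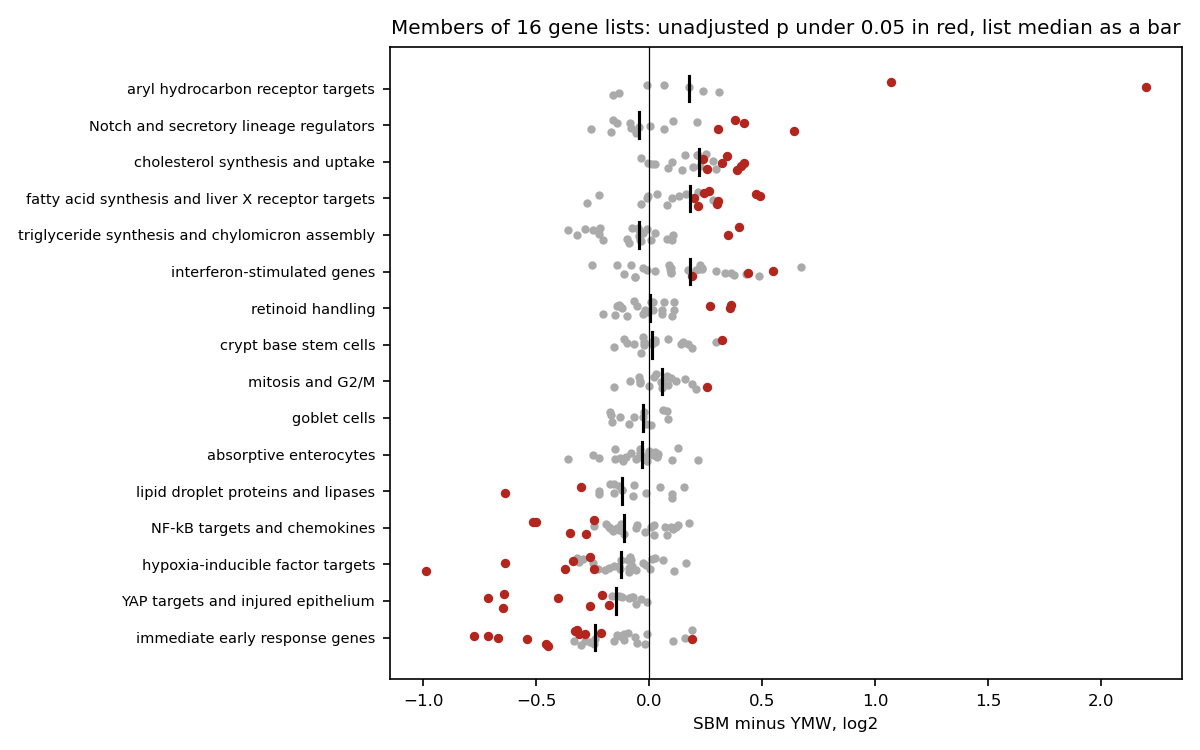
The log2 difference between SBM and YMW (x axis) of every measured member of 16 gene lists (y axis), with members at an unadjusted p under 0.05 in red and the list median as a black bar. Immediate early, YAP and hypoxia lists lie to the left, cholesterol and fatty acid synthesis to the right, and goblet and enterocyte lists around 0.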

How the data were processed

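The deposited unit is intensity, computed by RMA (version not given in the sources used here) with background correction, quantile normalization and summary by probe set. The values were linear where log2 had been assumed, so they were converted to log2. The platform annotation gave 1 symbol to 21218 of 35556 probe sets, several to 1881 and none to 12457. Each of 18820 genes was read from its probe set of highest mean. Background was a log2 intensity of 3.91, the 95th percentile of 1159 genes for receptors of smell, and 12876 genes had a mean above it. There are no counts, and the number of arrays sets the precision.

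The comparison of SBM with YMW was fitted with limma 3.58.1 (R 4.3.3) to the 12 protein-treated arrays, as 4 group means with a variance trend on intensity. MC arrays were left out because their mean variance was 0.0985, against 0.0260 to 0.0335 in the other groups. Comparisons with MC came from a fit of all 15 arrays. Errors after ± are SEs of log2 differences unless named SD. The fit was tested on simulated data, where genes drawn with no change also passed the study's unadjusted threshold, in a number close to that called in the real comparison. Some genes drawn with no change also had an adjusted p under 0.05 there, in data that held other genes drawn with a change.

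Members and 49 gene lists, with 818 different genes measured, were chosen with earlier results of these data known. Named are genes at an adjusted p under 0.05, up to 12 each way past the threshold, above background and without overlap (filled to 8 by genes at p under 0.05), up to 3 members a list past the threshold or otherwise 2 with the smallest p, and a fixed set of xenobiotic, lipid and stress genes. Predicted genes, smell receptors and small RNAs were counted. Other list members are named where a count is spelled out. Promoter sequences are from RefSeq, GRCm38.p6.

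The alternatives were other sets of arrays in the fit, 1 prior variance, an intensity-based moderated statistic, a replicate block, genes above background, a second quantile normalization, median centring, array weights, other thresholds, all probe sets or their mean, and the omission of each array. The omission of SBM replicate 3 with YMW replicate 1 was chosen after seeing the data.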

Additional observations from a re-analysis of the deposited data

How the results depend on the processing

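The main comparison had 9 genes higher with SBM, 22 higher with YMW and 4 at an adjusted p under 0.05. The adjusted count was 1 with all 15 arrays, 1 with the 6 SBM and YMW arrays alone, 2 with 1 prior variance and 2 with the mean of all probe sets of a gene. A second quantile normalization gave 14 genes higher with YMW. With arrays centred on their median, 20 were higher with SBM and 8 with YMW, and 17 of the 31 passed. Array weights gave 16 higher with SBM. A log2 difference of at least 1.5 left 1 gene, *Cyp1a1*, higher with SBM and 0 with YMW, no threshold on the fold gave 339 and 885, and all probe sets gave 86 and 321, where 368 of 407 had no symbol. Leaving out arrays gave 9 to 24 genes higher with SBM, 19 to 48 higher with YMW and 1 to 12 at an adjusted p under 0.05. In all, 65 genes passed without SBM replicate 3, 56 without YMW replicate 3 and 51 without SBM replicate 1. *Cyp1a1* passed the threshold and the adjusted p in all 23 alternatives.

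Same-numbered SBM and YMW arrays had correlations of -0.291 to 0.008 between their deviations from the group means. Other pairs of these groups had -0.271 to 0.348, and 0 of 6 arrays matched their own number best. Over all 4 protein sources, same-numbered pairs ran from -0.640 to 0.474. With so few arrays these values cannot decide whether a replicate number marks a mouse. With the replicate block all 31 genes passed the threshold and 1 had an adjusted p under 0.05. The block ended no threshold call.

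The reversed values were all of genes with no call. With a second quantile normalization they were *Cyp1a2* 0.0486, *Rara* 0.0147, *Pdk4* 0.0140 and *Rarg* 0.0271. With arrays centred on their median they were *Cyp1a2* 0.0758, *Rara* 0.0726, *Pdk4* 0.0668, *Rarg* 0.0395, *Arnt* 0.0229 and *Rxrb* 0.0198. With array weights *Cyp1a2* was at 0.0191. Leaving out arrays gave *Emcn* -0.138 to 0.318, *Rxra* -0.00955 to 0.217, *Ahr* -0.0191 to 0.0933, *Cyp1a2* -0.0707 to 0.0871, *Rara* -0.0689 to 0.0526, *Pdk4* -0.0430 to 0.0195 and *Fgf15* -0.667 to 0.0417. The causes were not tested. A level near background, as for *Cyp1a2*, *Ahrr* and the chitinase-like genes, hides small changes, and 3 arrays a group limit the precision of all values.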
